A study of Homo sapiens with 14 samples.

Results

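The leukocyte immunoglobulin-like receptors and their relative LAIR1 were followed in RS4;11 cells, a human acute lymphoblastic leukemia line with a rearranged KMT2A gene. The 6 genes LILRA1, LILRA2, LILRA3, LILRB1, LILRB2 and LAIR1 were selected on their levels across these same arrays, so their values are given as a description, without a test. They have 13 of the 19070 probe sets that are annotated with exactly 1 gene, and are 6 of the 11963 genes so measured. LILRA2 has 4 probe sets, LILRA1, LILRB1, LILRB2 and LAIR1 have 2 each, and LILRA3 has 1. Each was kept apart, since transcripts of such similar genes may bind each other's probes. In the naming of Affymetrix, an ending of _x_at marks a probe set that may match other transcripts, _s_at one shared by several transcripts, and _at one without such a mark. Of the 13, LILRA1 210660_at and LILRA2 207857_at have no mark.

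The series holds 14 arrays of this 1 line, labelled as separate replicates: 4 without treatment, and 5 each for cells that had spent 8 h or 24 h in 10 nM dexamethasone. Cells of every group had first been kept for 2 days in medium whose serum was stripped of hormones, so untreated means deprived of glucocorticoid. Dexamethasone is a synthetic ligand of the glucocorticoid receptor, and the comparisons ask which transcripts differed early (8 h) and late (24 h) after it was added. The untreated arrays stand for 0 h and have no later counterpart here, so time in culture and the drug cannot be told apart. Codes that look like dates, which the labels do not explain, are shared between arrays in the sample descriptions. Arrays with the same code are called a set here (5 sets), and codes with the same apparent date a day (4 days), though what was done then is not stated. Sets 1 and 2 fall on day 1, and set 5 has no untreated array. The values are log2 expression values from robust multi-array averaging (RMA), which have no true 0 and no detection call, and the number of arrays limits their precision. The median over all probe sets lay between 6.03 and 6.05 on untreated arrays, between 6.03 and 6.09 on those of 8 h and between 6.07 and 6.11 on those of 24 h. Of 11 probe sets of known glucocorticoid-responsive genes, 8 rose at 24 h and 8 at 8 h. TSC22D3 208763_s_at was higher by 3.09 log2 units at 24 h (adjusted p = 1.17e-14) and by 2.69 at 8 h (adjusted p = 2.06e-13).

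The receptors are encoded side by side in the leukocyte receptor complex of chromosome 19 and sit mainly on monocytes, macrophages, dendritic cells and B cells. Receptors of the A group with a membrane anchor have short tails and signal through FCER1G, an adaptor with an activating tyrosine motif (ITAM). LILRA3 lacks the anchor and is secreted. Receptors of the B group and LAIR1 carry inhibitory tyrosine motifs (ITIMs) that recruit phosphatases such as PTPN6. LILRB1 and LILRB2 bind HLA class I, and LAIR1 binds collagens.

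The stretches upstream of LILRA1 and LAIR1 are shown because they hold a hexamer of the glucocorticoid receptor site, and those of LILRB1 and LILRB2 because they are close copies of the LILRA1 stretch. RefSeq lists 12 promoter windows of 300 bases (build GRCh38.p14) for 5 of the genes, and LILRA3 was not matched. The glucocorticoid receptor binds a palindrome, searched here as GNACA and TGTNC with 3 bases between them, on both strands. It was found in 137 of 35116 windows of all genes (0.39%) and in none of the 12. Its hexamer AGAACA was found in 14.8% of all windows and in 2 of the 12, at LILRA1 (chr19:54593382-54593681, plus strand) and LAIR1 (chr19:54364882-54365181, minus strand). The capitals mark the hexamer, which reads as its reverse complement at LILRA1, and the bases aligned to it in LILRB1 (chr19:54630234-54630533, plus strand) and LILRB2 (chr19:54281061-54281360, minus strand). The 250 bases before the start site are printed.
LILRA1: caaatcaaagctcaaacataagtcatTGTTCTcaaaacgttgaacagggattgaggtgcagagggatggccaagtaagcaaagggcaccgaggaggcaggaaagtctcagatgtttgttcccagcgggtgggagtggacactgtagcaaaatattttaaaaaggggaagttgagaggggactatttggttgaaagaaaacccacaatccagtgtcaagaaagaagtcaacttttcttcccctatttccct
LILRB1: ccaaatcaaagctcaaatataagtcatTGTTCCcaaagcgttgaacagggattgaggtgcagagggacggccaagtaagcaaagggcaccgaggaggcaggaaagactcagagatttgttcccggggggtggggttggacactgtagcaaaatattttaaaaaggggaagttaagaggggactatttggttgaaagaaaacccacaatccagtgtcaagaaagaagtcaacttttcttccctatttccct
LILRB2: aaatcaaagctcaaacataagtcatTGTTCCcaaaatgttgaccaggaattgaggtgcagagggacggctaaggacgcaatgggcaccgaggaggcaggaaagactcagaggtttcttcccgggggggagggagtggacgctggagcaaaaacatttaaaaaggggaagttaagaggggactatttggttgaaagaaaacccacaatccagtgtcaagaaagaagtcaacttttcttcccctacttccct
LAIR1: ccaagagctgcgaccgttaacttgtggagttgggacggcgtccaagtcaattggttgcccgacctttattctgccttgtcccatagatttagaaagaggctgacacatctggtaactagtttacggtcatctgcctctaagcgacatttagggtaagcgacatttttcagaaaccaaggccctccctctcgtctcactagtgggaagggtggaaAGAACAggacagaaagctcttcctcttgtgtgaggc

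The LILRA1 window was identical to that of LILRB1 in 94.3% of 299 aligned bases and to that of LILRB2 in 91.0%. The marked bases of both differ from LILRA1 by T32C, with positions counted from the 5′ end of the LILRA1 window. LILRA1, LILRB1 and LILRB2 all hold TGTTC there, which matches the TGTNC of the palindrome, so only the exact hexamer differs. The core of the PU.1 site, GAGGAA, was found on either strand in 27.9% of all windows, in both LAIR1 windows and in 1 of 3 LILRB1 windows. A match is a string of letters and not a measured binding site, and whether these letters have a part in the levels was not tested.

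At both times the receptor transcripts stood above untreated cells. All 13 probe sets were higher at 24 h, by 0.80 to 5.82 log2 units, and all 13 at 8 h, by 0.26 to 5.40. Their median difference was 2.15 at 24 h and 1.54 at 8 h, where the median of all probe sets was -0.01 at 24 h and -0.02 at 8 h. At 24 h all 13 had arrays that did not overlap those of untreated cells, which held for 16.3% of all probe sets, and all 13 passed the adjusted p of 0.05 as higher, which 18.5% of all did, while 18.6% of all passed as lower. At 8 h 12 of 13 did not overlap, against 7.22% of all probe sets, and 12 of 13 passed as higher, against 7.75% of all, with 9.13% of all lower. The genes were selected on these comparisons, so nothing is read from these counts. The comparisons also share the 4 untreated arrays. In bulk RNA, fewer cells of a kind and less RNA per cell cannot be told apart.

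**Figure D1:**
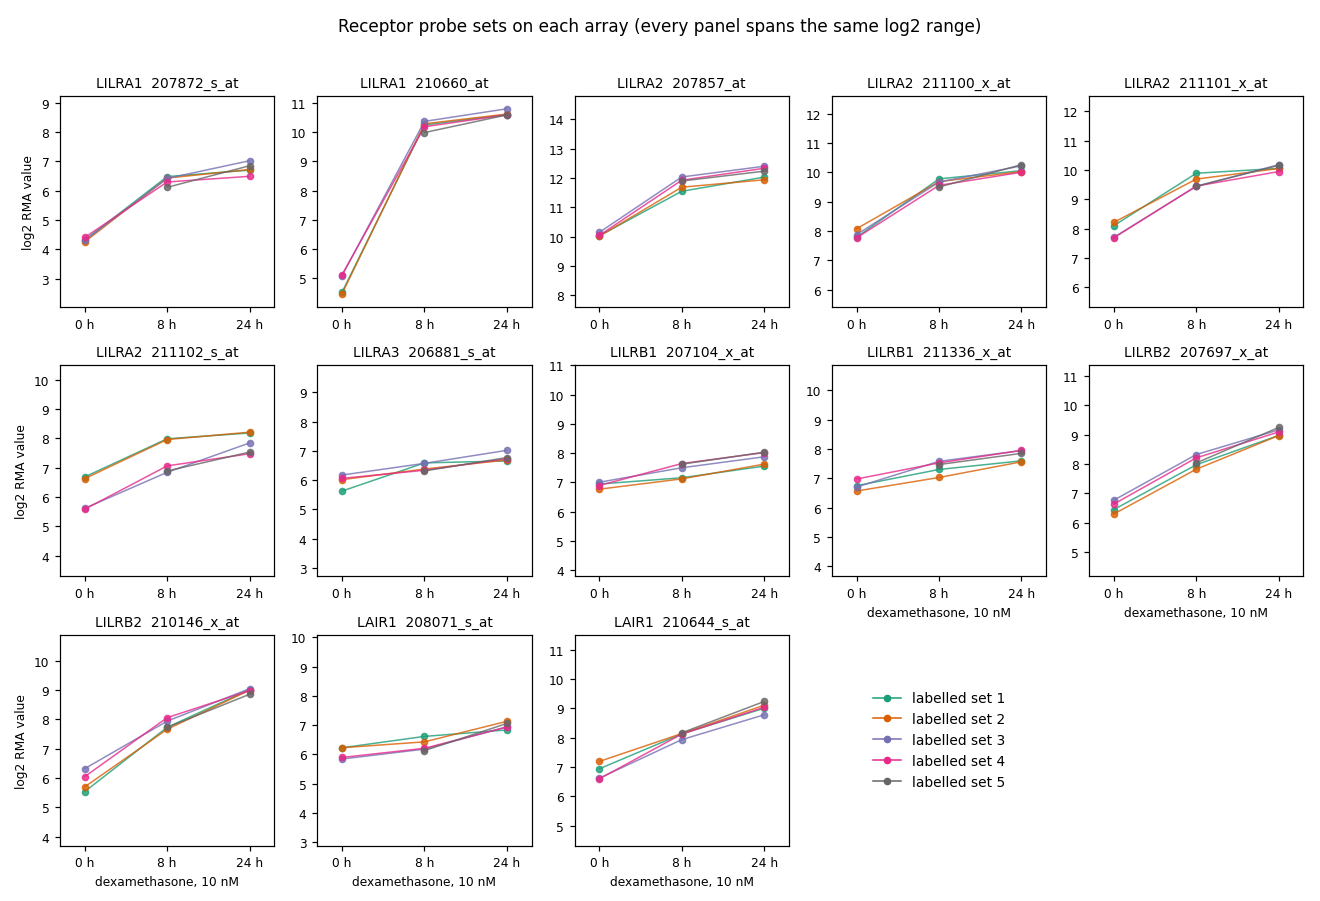
Log2 RMA value (y axis) of the 13 receptor probe sets at 0 h (untreated), 8 h and 24 h of 10 nM dexamethasone (x axis); each point is 1 array and lines join arrays of the same labelled set. Every line climbs at both steps, most steeply for LILRA1 210660_at, and in LILRA2 211102_s_at the 2 sets of day 1 run above the others.

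LILRA1, an activating receptor, had the widest range of any receptor. Its probe set 210660_at gave 4.53, 4.48, 5.09 and 5.12 on untreated arrays, 10.23, 10.28, 10.36, 9.98 and 10.18 on those of 8 h, and 10.59, 10.61, 10.79, 10.58 and 10.58 on those of 24 h. No array of treated cells came near the untreated ones, and the 24 h arrays all lay above the 8 h arrays. The mean was 10.63 ± 0.09 at 24 h (SD, n = 5) and 4.81 ± 0.35 in untreated cells (SD, n = 4), a difference of 5.82 ± 0.13 (standard error of the fit), or 56.6-fold on the RMA scale. At 8 h the difference from untreated cells was 5.40 ± 0.13, or 42.2-fold, which is 92.7% of that at 24 h. Within the 4 sets that hold both groups the difference ran between 5.46 and 6.13 at 24 h and between 5.05 and 5.80 at 8 h. The second probe set, 207872_s_at, moved the same way by less. It gave 4.32, 4.26, 4.31 and 4.41 on untreated arrays, 6.48, 6.43, 6.42, 6.12 and 6.30 on those of 8 h, and 6.71, 6.73, 7.03, 6.86 and 6.49 on those of 24 h. Its difference was 2.44 ± 0.10 at 24 h and 2.03 ± 0.10 at 8 h, so that the probe sets of this gene give folds of 56.6 and 5.42 at 24 h. Untreated values of 207872_s_at lay near the mean of T and NK cell markers on untreated arrays (4.26 to 4.35). RMA gives no detection call, so whether the untreated values of either probe set were above background is not known, and the folds may be lower bounds. Which probe set is nearer to the transcript was not tested.

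LILRA2, an activating receptor that senses immunoglobulin cut by microbial proteases, was higher on all 4 of its probe sets, by 1.72 to 2.24 at 24 h. The unmarked 207857_at gave 10.03, 10.01, 10.14 and 10.04 on untreated arrays, 11.55, 11.69, 12.04, 11.90 and 11.92 on those of 8 h, and 12.03, 11.94, 12.40, 12.24 and 12.33 on those of 24 h. Untreated arrays were tightly grouped, with an SD of 0.06 (n = 4), and the difference was 2.13 ± 0.11 at 24 h (4.38-fold) and 1.76 ± 0.11 at 8 h (3.39-fold). For 211100_x_at the difference was 2.24 ± 0.08 at 24 h and 1.76 ± 0.08 at 8 h, and for 211101_x_at it was 2.15 ± 0.12 at 24 h and 1.66 ± 0.12 at 8 h. The fourth, 211102_s_at, split by day. It gave 6.68, 6.63, 5.61 and 5.58 on untreated arrays, 7.98, 7.96, 6.84, 6.89 and 7.06 on those of 8 h, and 8.18, 8.21, 7.84, 7.53 and 7.47 on those of 24 h. The first values of each group are the 2 arrays of day 1, which exceeded the other days by 1.06 in untreated cells, 1.04 at 8 h and 0.58 at 24 h. Over all arrays the difference was 1.72 ± 0.30 at 24 h and 1.22 ± 0.30 at 8 h. Within single sets it was 1.5 to 2.23 at 24 h and 1.23 to 1.48 at 8 h.

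LILRA3, the secreted member, differed least at 24 h. Its probe set 206881_s_at gave 5.63, 6.02, 6.18 and 6.06 on untreated arrays, 6.59, 6.38, 6.57, 6.32 and 6.34 on those of 8 h, and 6.66, 6.69, 7.02, 6.77 and 6.74 on those of 24 h. The groups did not overlap, but the highest untreated array and the lowest 8 h array were close. The difference was 0.80 ± 0.11 at 24 h (1.75-fold) and 0.47 ± 0.11 at 8 h (1.38-fold). It rested partly on the untreated array of set 1: the 8 h difference was 0.66 within day 1 and 0.29 within the other days.

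Of the inhibitory receptors, LILRB2 had the largest differences. Its probe set 210146_x_at gave 5.53, 5.69, 6.31 and 6.04 on untreated arrays, 7.72, 7.66, 7.94, 7.72 and 8.06 on those of 8 h, and 9.01, 8.99, 9.04, 8.85 and 8.98 on those of 24 h. The 3 groups formed separate steps. The mean was 8.98 ± 0.07 at 24 h (SD, n = 5) and 5.90 ± 0.35 in untreated cells (SD, n = 4), a difference of 3.08 ± 0.13, or 8.46-fold. At 8 h the difference was 1.92 ± 0.13, or 3.80-fold. The other probe set, 207697_x_at, gave 2.56 ± 0.11 at 24 h and 1.54 ± 0.11 at 8 h. Within single sets its 8 h difference stayed between 1.53 and 1.58.

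LILRB1, an inhibitory receptor for HLA class I, had smaller differences. Its probe set 211336_x_at gave 6.75, 6.57, 6.70 and 6.98 on untreated arrays, 7.30, 7.03, 7.58, 7.47 and 7.53 on those of 8 h, and 7.60, 7.56, 7.95, 7.85 and 7.95 on those of 24 h. The treated arrays lay above the untreated ones, while the 24 h and 8 h arrays overlapped. The difference was 1.03 ± 0.12 at 24 h (2.05-fold) and 0.63 ± 0.12 at 8 h (1.55-fold). For 207104_x_at it was 0.92 ± 0.13 at 24 h and 0.51 ± 0.13 at 8 h. There the arrays of day 1 were lower than those of the other days by 0.09 without treatment, 0.45 at 8 h and 0.38 at 24 h, so the 8 h difference was 0.28 within day 1. Both probe sets carry the _x_at mark.

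LAIR1, the collagen receptor, was higher at both times on 1 probe set and mainly at 24 h on the other. Its probe set 210644_s_at gave 6.94, 7.19, 6.62 and 6.60 on untreated arrays, 8.13, 8.14, 7.94, 8.17 and 8.13 on those of 8 h, and 9.01, 9.11, 8.78, 9.24 and 9.04 on those of 24 h. The 3 groups again formed separate steps. The difference was 2.20 ± 0.12 at 24 h (4.59-fold) and 1.26 ± 0.12 at 8 h (2.40-fold). The other, 208071_s_at, gave 6.23, 6.23, 5.85 and 5.90 on untreated arrays, 6.62, 6.43, 6.18, 6.13 and 6.21 on those of 8 h, and 6.84, 7.13, 6.94, 7.06 and 6.94 on those of 24 h. It was the probe set that overlapped at 8 h, where the untreated arrays of day 1 reached as high as the 8 h arrays of the other days. Its difference was 0.93 ± 0.11 at 24 h and 0.26 ± 0.11 at 8 h, and within single sets that at 8 h was 0.20 to 0.39.

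**Figure D2:**
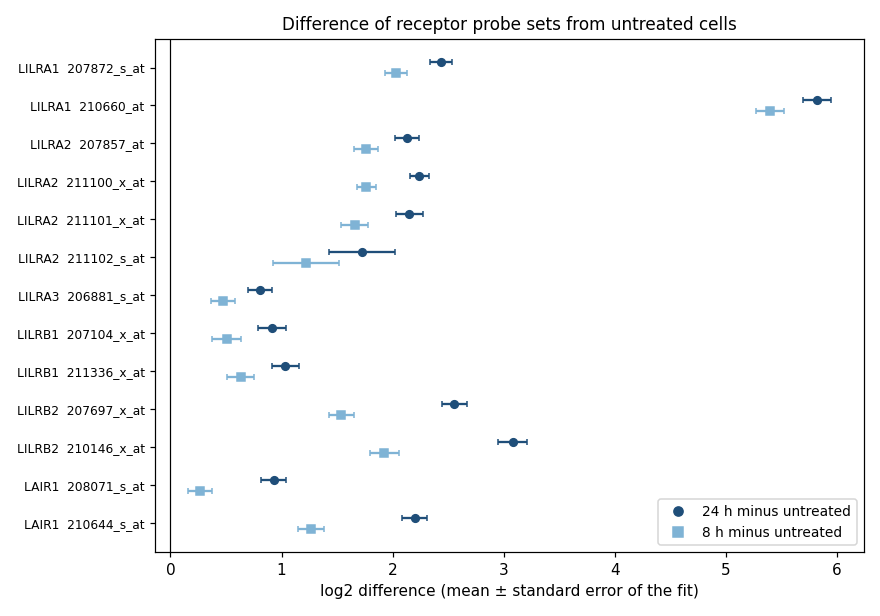
Log2 difference of each receptor probe set from untreated cells (x axis; bars are standard errors of the fit) at 24 h (circles) and 8 h (squares) of 10 nM dexamethasone. All differences lie right of 0, with LILRA1 210660_at farthest at 5.82 (24 h) and 5.40 (8 h) and LAIR1 208071_s_at nearest to 0 at 8 h with 0.26.

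The step between 8 h and 24 h was widest for LILRB2 and LAIR1. The difference of 24 h from 8 h was 1.02 ± 0.10 and 1.16 ± 0.12 for the probe sets of LILRB2, and 0.67 ± 0.10 and 0.94 ± 0.11 for those of LAIR1. For the LILRA and LILRB1 probe sets it was 0.34 to 0.50. Expressed as a share, 8 h had reached 70.8% to 92.7% of the 24 h difference for the LILRA1 and LILRA2 probe sets, 55.1% to 62.5% for those of LILRA3, LILRB1 and LILRB2, and 28.4% and 57.4% for those of LAIR1. Every probe set was higher at 24 h than at 8 h in each of the 5 sets, with the smallest step for LILRA3 in set 1, at 0.07. LILRB2 210146_x_at stepped by 1.29, 1.33, 1.11, 0.92 and 1.13 in sets 1 to 5, and LAIR1 210644_s_at by 0.88, 0.97, 0.85, 0.92 and 1.07. LILRA1 210660_at stepped by 0.35, 0.33, 0.43, 0.40 and 0.60 in the same sets. Its highest step, in set 5, lay below the lowest of LILRB2 210146_x_at, in set 4. Over all arrays, 9 of 13 probe sets did not overlap between 24 h and 8 h, which 10.6% of all probe sets did not in that direction, and 12 of 13 passed as higher, against 13.3% of all, with 11.7% of all lower. The median of the 13 was 0.48, and that of all probe sets 0.01. These values too belong to the levels on which the genes were selected.

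**Figure D3:**
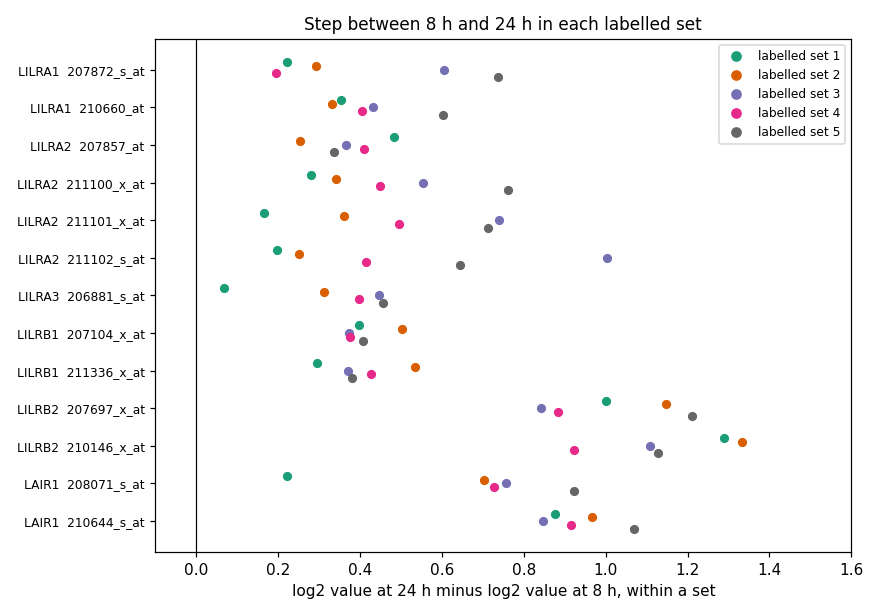
Log2 value at 24 h minus log2 value at 8 h (x axis) for each receptor probe set (y axis) in each of the 5 labelled sets (colours). All points lie right of 0, and those of LILRB2 and of LAIR1 210644_s_at all lie at or above 0.84.

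Once the group means were removed, the probe sets did not vary as 1 block over the 14 arrays. LILRA2 211101_x_at and LAIR1 208071_s_at moved together (r = 0.879), whereas LILRA1 210660_at and LAIR1 210644_s_at moved oppositely (r = -0.860). These are the extremes of the 78 pairs, and the arrays share sets and days. In untreated cells, the arrays of day 1 were lower than those of the other days by 0.61 for LILRA1 210660_at and 0.57 for LILRB2 210146_x_at, and higher by 0.46 for LAIR1 210644_s_at and LILRA2 211101_x_at.

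Other members of the family rose in part. LILRB4 and LILRP1 were not analysed here, and 7 other LILR and LAIR genes have 11 probe sets. At 24 h 7 probe sets of 4 genes rose, with a median difference of 0.48 over the list, and at 8 h 5 probe sets of 3 genes rose. In limma none fell at either time, also at an unadjusted p below 0.05 (0 probe sets). LILRA6 208594_x_at, an activating receptor, gave 7.24, 6.76, 6.97 and 7.02 on untreated arrays, 8.12, 7.77, 7.79, 7.62 and 7.63 on those of 8 h, and 8.21, 8.05, 8.18, 8.28 and 8.24 on those of 24 h. It rose by 1.19 ± 0.11 at 24 h (adjusted p = 1.66e-07, limma) and by 0.79 ± 0.11 at 8 h (adjusted p = 6.21e-05), and its 24 h and 8 h arrays overlapped. LILRB3, an inhibitory receptor whose outer part is nearly identical to that of LILRA6, rose at 24 h on all 4 probe sets, by 0.48 to 0.93 (adjusted p = 6.19e-07 for 211135_x_at), and all carry the _x_at mark. LILRA4, a receptor of plasmacytoid dendritic cells, rose on 210313_at by 0.62 ± 0.09 at 24 h (adjusted p = 2.78e-05) and 0.48 ± 0.09 at 8 h (adjusted p = 0.00113). Within day 1 alone 4 of the 5 probe sets that rose at 8 h lost the call, LILRA4 with 0.45 (adjusted p = 0.0567) and LILRB3 with 0.24 on 210225_x_at (0.0771), 0.27 on 210784_x_at (0.115) and 0.42 on 211135_x_at (0.062). LAIR2, a secreted relative of LAIR1, rose by 0.35 ± 0.11 at 24 h (adjusted p = 0.0251). The call was lost with the set as a block (adjusted p = 0.0512) and without any of 4 single arrays, 24 h replicates 4 and 5 and untreated replicates 2 and 4 (adjusted p 0.055 to 0.105). At 24 h, LILRA5 had -0.19 and 0.11 on its probe sets, LILRB5 had 0.11 and the pseudogene LILRP2 had 0.18, and none passed. Without 24 h replicate 1, LILRA5 215839_at passed at -0.26 (adjusted p = 0.0438). The genes lie along chromosome 19 in the order LILRB3, LILRA6, LILRB5, LILRB2, LILRA5, LILRA4, LAIR1, LAIR2, LILRA2, LILRA1, LILRB1 and LILRP2. LILRA3 was left out of this order. LILRB5 and LILRA5, which did not pass at 24 h, stand between genes that did, of which LILRB2 was selected on its levels. LILRP2 lies at the end. The probe sets of LILRA5, LILRB5 and LILRP2 had low means, from 3.276 to 4.339 in untreated cells and from 3.389 to 4.145 at 24 h. Whether these were above background is not known, so a change in these genes could be missed.

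**Figure D4:**
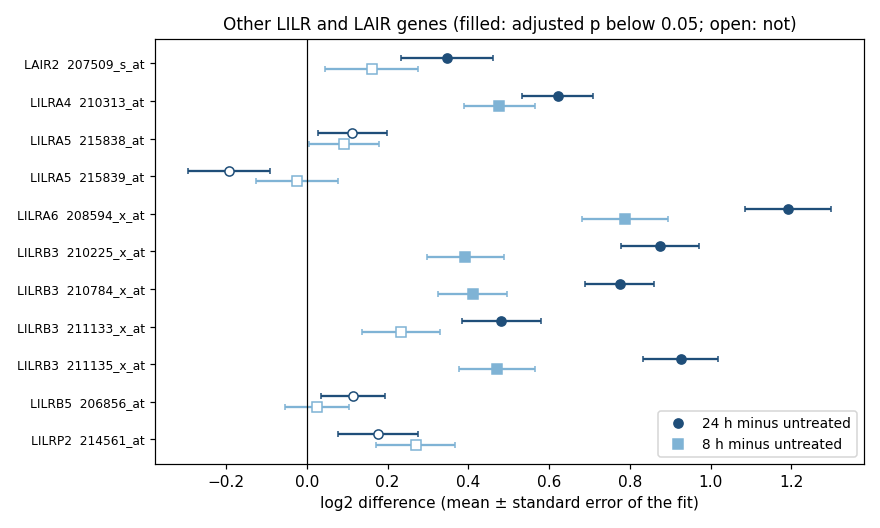
Log2 difference from untreated cells (x axis; bars are standard errors of the fit) at 24 h (circles) and 8 h (squares) for the 11 probe sets of other LILR and LAIR genes; filled marks passed an adjusted p of 0.05 in limma and open marks did not. LILRA6 lies farthest right at 1.19, and LILRA5, LILRB5 and LILRP2 have open marks only.

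Other genes of the same complex were counted beside the 18.5% of all probe sets that rose and the 18.6% that fell at 24 h. Among 27 probe sets of killer-cell immunoglobulin-like receptors and related receptors (FCAR, NCR1, GP6), limma called none higher and 1 lower at 24 h, where the median was 0.01, and 1 higher at 8 h. At an unadjusted p below 0.05, 1 was higher at 24 h, and 1 was called higher there with the set as a block. KIR2DL4 211245_x_at fell by 0.23 at 24 h (adjusted p = 0.0227), a call lost without 24 h replicate 3 (adjusted p = 0.0598), untreated replicate 2 (0.0503) or untreated replicate 3 (0.0776), and within either part of the days. KIR3DX1 216428_x_at rose by 0.46 at 8 h (adjusted p = 0.00326). Means of the 27 probe sets were low, from 3.011 to 5.362 in untreated cells and from 2.920 to 5.391 at 24 h. Whether these were above background is not known, so a change in these receptors could be missed. Of 13 probe sets of genes of other kinds beside the cluster, 2 rose and 2 fell at 24 h. Of those that rose, TFPT 218996_at (0.18, adjusted p = 0.0397) lost its call without any one 24 h replicate or untreated replicate 1, 2 or 4 (adjusted p 0.0508 to 0.103), with cyclic loess (0.0786), with arrays shifted to the same median (0.163) and within either part of the days, which leaves 1. PRPF31, a splicing factor, fell by 0.53 on 202408_s_at (adjusted p = 9.30e-07). MBOAT7, a lysophospholipid acyltransferase, rose by 0.33 on 209179_s_at (adjusted p = 0.00199). The other MBOAT7 probe set, 211037_s_at, had -0.17 at 24 h and did not pass (adjusted p = 0.23). Within day 1 alone MBOAT7 209179_s_at had 0.25 (adjusted p = 0.0737). With the set as a block 4 of the 13 fell at 24 h and 2 at 8 h.

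The adaptor through which LILRA1 and LILRA2 signal was higher too. FCER1G 204232_at gave 4.49, 4.50, 4.21 and 3.97 on untreated arrays, 6.16, 6.44, 5.93, 5.0 and 5.45 on those of 8 h, and 5.74, 5.93, 6.36, 5.45 and 6.01 on those of 24 h. The treated arrays spread more widely than the untreated ones but all lay above them. FCER1G rose by 1.61 ± 0.24 at 24 h (adjusted p = 5.34e-05) and by 1.51 ± 0.24 at 8 h (adjusted p = 3.31e-04). Over the 31 probe sets of ITAM adaptors and kinases, 4 rose and 3 fell at 24 h, and 3 rose and 9 fell at 8 h, with medians of 0.04 at 24 h and -0.18 at 8 h. With the set as a block 14 of the 31 fell at 8 h. BLK, a Src-family kinase of B cells, rose by 1.29 on 206255_at at 24 h (adjusted p = 4.49e-08, limma), with 0.10 on 210934_at (adjusted p = 0.493). LAT2, a membrane adaptor, fell by 0.57 on 221581_s_at (adjusted p = 2.20e-04), with -0.11 on 211768_at (adjusted p = 0.802). The kinase BTK fell by 0.41 (adjusted p = 0.00128). Among the partners of inhibitory tails, 1 of 14 probe sets rose at 24 h and 1 fell at 8 h. PTPN6, the SHP-1 phosphatase, rose by 0.38 ± 0.08 at 24 h (adjusted p = 9.83e-04). With the set as a block the counts were 2 higher and 1 lower at 24 h, and 5 lower at 8 h.

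Ligands of the receptors were measured in the same cells. At 24 h 14 of 57 probe sets rose and 1 fell, with a median difference of 0.07, where 18.5% of all probe sets rose and 18.6% fell. The 14 belong to 5 of 24 genes, and 2521 of all 11963 genes had a probe set that rose. Probe sets of HLA-B, HLA-C, HLA-G, B2M and the collagens were not called at 24 h, whereas those of HLA-E rose. At 8 h 5 rose, where 7.75% of all did, and limma called none lower (4 at an unadjusted p below 0.05, and 2 with the set as a block). HLA-F, a class I molecule that LILRB1 and LILRB2 bind, rose on 221978_at by 1.24 ± 0.10 at 24 h (adjusted p = 5.11e-08) and by 1.13 ± 0.10 at 8 h (adjusted p = 7.84e-07). FN1 212464_s_at, which encodes fibronectin, a ligand of LILRB4, rose by 0.53 ± 0.09 at 24 h (adjusted p = 1.30e-04). BST2, a ligand of LILRA4, rose by 0.49 ± 0.09 at 24 h (adjusted p = 2.39e-04) and had -0.13 at 8 h. RTN4, a ligand of LILRB2, rose on 214629_x_at by 0.26 ± 0.05 at 24 h (adjusted p = 7.75e-04). The count of 14 was 7 with the study's variance filter, which leaves fewer of these probe sets.

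Among 44 probe sets of other inhibitory receptors of B and myeloid cells, 5 rose and 7 fell at 24 h, where the median was 0.00, and 1 rose (2 with the set as a block) and 5 fell at 8 h. The 1 that rose at 8 h, KLRB1, lost its call without 8 h replicate 3, 4 or 5 or untreated replicate 1, 2 or 3 (adjusted p 0.0712 to 0.131), with cyclic loess (0.0543), with arrays shifted to the same median (0.0536) and within day 1 (0.0734). CLEC4A, a C-type lectin with an ITIM, rose on 219947_at by 1.26 ± 0.16 at 24 h (adjusted p = 1.16e-05), and KLRB1, the CD161 lectin, rose by 1.19 ± 0.15 (adjusted p = 8.59e-06). CD72, a B cell coreceptor, rose by 0.60 ± 0.08 (adjusted p = 1.40e-05), while CD22, the sialic acid receptor of B cells, fell by 0.35 ± 0.07 on 38521_at (adjusted p = 0.00129). Within the other days than day 1, CD22 38521_at had -0.24 (adjusted p = 0.0867).

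Of the transcription factors of myeloid genes and the glucocorticoid receptor, 7 of 19 probe sets rose and 3 fell at each time. These belong to 3 genes that rose and 3 that fell, of 11 measured, and several that rose at 24 h are of NR3C1 alone. Of all probe sets, 18.5% rose and 18.6% fell at 24 h, and 7.75% rose and 9.13% fell at 8 h. NR3C1, the receptor itself, rose by 1.04 ± 0.08 on 201866_s_at at 24 h (adjusted p = 2.00e-08), and FLI1, an ETS factor, by 0.38 ± 0.09 on 210786_s_at (adjusted p = 0.00182). The myeloid factors CEBPA and CEBPB fell, by 0.58 ± 0.08 (adjusted p = 1.77e-05) and 1.19 ± 0.22 (adjusted p = 3.88e-04). SPI1, the gene of PU.1, named after its values were seen, had 4.48 at 24 h and 4.48 in untreated cells on 205312_at. Whether these low values were above background is not known, so a change in SPI1 could be missed. The study reported PU.1 bound to chromatin in this line, both without and with dexamethasone.

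Markers of monocytes and granulocytes had a median difference of 0.01 at 24 h. Of 31 probe sets of monocyte and granulocyte markers, 4 rose and 2 fell at 24 h. Of those that rose, LYZ 213975_s_at, lost its call without 24 h replicate 4 or 5 or untreated replicate 1, 2 or 3 (adjusted p 0.0662 to 0.0823) and within either part of the days. The mean log2 value of the 31 per array was 3.896 to 3.907 on untreated arrays, 3.831 to 3.923 on those of 8 h and 3.886 to 3.996 on those of 24 h. ITGAM, the CD11b integrin, rose on 205786_s_at by 0.83 ± 0.11 at 24 h (adjusted p = 1.19e-05) and had -0.05 at 8 h. The other ITGAM probe set, 205785_at, was not called at 24 h. CSF1R, the receptor of macrophage colony-stimulating factor, fell by 0.33 ± 0.11 at 24 h (adjusted p = 0.0242). The CSF1R call was lost without 24 h replicate 3 (adjusted p = 0.0616) or untreated replicate 4 (0.0631, at -0.18). At 8 h limma passed none of these 31 probe sets, and at an unadjusted p below 0.05 it had 1 higher and 1 lower. With the set as a block 1 was called lower there. Of 30 probe sets of T and NK cell markers, 2 rose at 24 h and 2 at 8 h, GZMA and KLRF1, and within day 1 KLRF1 had 0.16 at 8 h (adjusted p = 0.215). GZMA rose by 1.29 ± 0.13 at 24 h (adjusted p = 6.59e-07). Their mean was 4.26 to 4.35 on untreated arrays, 4.26 to 4.41 on those of 8 h and 4.29 to 4.37 on those of 24 h. The B-lineage markers, set against the labelled cell type, had a mean of 9.51 to 9.66 on untreated arrays, 9.40 to 9.48 on those of 8 h and 9.61 to 9.77 on those of 24 h. Of 22 probe sets 11 rose and 5 fell at 24 h, with a median difference of 0.23. The 11 belong to 6 of the 14 genes measured, and the 5 that fell to 5 genes. VPREB3 rose by 1.69 ± 0.14 (adjusted p = 9.70e-08) and BLNK fell by 2.21 ± 0.28 (adjusted p = 7.90e-06). Whether these markers have a part in the receptor values was not tested.

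The genes whose pattern over the 14 arrays was most like that of LILRA1 210660_at were SLA (r = 0.997), DOK4 (0.996), MAP3K5 (0.995), TSC22D3 (0.994) and SLC25A14 (0.994). SLA, an adaptor that dampens antigen receptor signals, differed from untreated cells by 2.10 at 24 h and 2.0 at 8 h, so it too had most of its difference by 8 h. The closest to LAIR1 210644_s_at were SPAG4 (r = 0.990), BIN1 (0.988) and GP9 (0.986). SPAG4 differed by 3.74 at 24 h and 1.82 at 8 h. These coefficients hold the group differences that many genes share, and carry no p.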

How the data were processed

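RNA of RS4;11 cells was hybridized to 14 arrays, whose groups and replicate numbers come from the sample labels. Sets and days were read from date-like codes in the sample descriptions, which the labels do not explain. The authors dropped 1 untreated replicate after quality control, ran RMA (background correction, normalization and summary per probe set, in affy, whose version is not given in the sources used here), and deposited the log2 values of all 22277 probe sets. The study's variance filter and its mean per gene followed that step, so the deposited values do not contain them. The study's methods name an Agilent array, whereas the labels name an Affymetrix protocol and the probe sets carry Affymetrix names. RMA background correction and quantile normalization pull low values together, which can understate large differences.

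The 19070 probe sets with a single annotated gene entered the fit, while 1043 with several genes and 2164 with none were left out, and no left-out probe set with several genes named an LILR or LAIR gene. Symbols were checked against RefSeq, where 12 had no entry and none changed. A limma model (version 3.58.1 in R 4.3.3, lmFit and eBayes) over all 14 arrays and 3 groups, without a block, gave each difference with its standard error. Benjamini-Hochberg adjustment ran over all probe sets, and a probe set was called at an adjusted p below 0.05. The calculation was tested on simulated data with independent arrays, so that test does not cover arrays that share a set or day. P-values measure only the spread between these arrays, since nothing says that replicates came from separate cultures, and no pair of arrays held identical values.

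The receptors, the 12 gene lists and the rule for named genes were chosen with earlier results of these data known. The rule names every probe set of the receptors and of the other LILR and LAIR genes, up to 4 genes of each other list with the smallest adjusted p at 24 h, and the 5 genes most like LILRA1 and the 3 most like LAIR1 by Pearson's r. Not every gene of the rule is printed. Residuals of arrays from the same labelled set and different groups correlated across probe sets with r of 0.341 to 0.560 in all 13 pairs, against -0.486 to 0.501 for arrays of other sets. The ranges overlap. Both sets of day 1 also correlated with each other, and 24 h replicate 5 and 8 h replicate 4, of different sets and days, had r of 0.397. The residuals thus neither separate set from day nor single out the set. The set was taken to pair the samples, and was used as a block in an alternative. Other alternatives were the title number as a block, the set as a random block, filters on variance and on dim probe sets, a mean per gene, cyclic loess, a shift to the same median, only the groups compared, a trended and robust eBayes, an adjusted p below 0.01, the parts of the days, and each array left out in turn. Promoters were aligned with Biopython 1.88.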

Additional observations from a re-analysis of the deposited data

Results flagged for a closer look

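The highest or lowest array of each group was set against the rest of its group for the 24 LILR and LAIR probe sets. Of 72 groups, 6 held an array apart by Dixon's criterion, which chance gives in about 1 of 20 groups. LILRA1 210660_at was 10.79 on 24 h replicate 3, where the other 24 h arrays had 10.58 to 10.61. LAIR1 210644_s_at was 7.94 on 8 h replicate 3, with 8.13 to 8.17 on the others. LILRA4 210313_at was 6.04 on 24 h replicate 1, with 6.33 to 6.41 on the others. LILRP2 214561_at was 3.70 on 8 h replicate 5, with 4.01 to 4.09 on the others, and without that array its 8 h difference of 0.27 (adjusted p = 0.0749) became 0.34 (adjusted p = 0.0165). LILRB5 206856_at was 3.86 on untreated replicate 1, with 3.68 to 3.70 on the others. LILRB3 211135_x_at was 6.64 on untreated replicate 2, with 6.94 to 6.98 on the others.

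For 6 named genes the difference from untreated cells had opposite signs at 24 h and 8 h, and the difference between the times passed in limma. MBOAT7 209179_s_at had 0.33 at 24 h and -0.08 at 8 h, a difference of 0.40 (adjusted p = 3.9e-04). TFPT 218996_at had 0.18 at 24 h and -0.04 at 8 h, a difference of 0.22 (adjusted p = 0.014), which was 0.13 within day 1 (adjusted p = 0.345). BST2 201641_at had 0.49 at 24 h and -0.13 at 8 h, a difference of 0.62 (adjusted p = 3.29e-05). CLEC4A 219947_at had 1.26 at 24 h and -0.10 at 8 h, a difference of 1.36 (adjusted p = 7.79e-06). ITGAM 205786_s_at had 0.83 at 24 h and -0.05 at 8 h, a difference of 0.88 (adjusted p = 9.67e-06). CD79B 205297_s_at had 0.98 at 24 h and -0.07 at 8 h, a difference of 1.05 (adjusted p = 3.91e-07). The 8 h values of these 6 did not pass.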

How the results depend on the processing

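The differences of the 13 receptor probe sets kept their sign with cyclic loess and with a shift to the same median. They kept it too with the set or title number as a block, within either part of the days and with each array left out. They were not recorded under the other alternatives. The genes were selected on these comparisons, so nothing is read from the kept sign. The median of the 13 at 24 h was 2.3419 within the days other than day 1, against 2.15 over all arrays. With single arrays left out it was 2.1177 to 2.2476. Of the counts over all probe sets, 4270 genes passed at 24 h with the variance filter and mean per gene, against 7073 probe sets, because fewer features enter, and 1971 passed at 8 h at an adjusted p below 0.01, against 3220. With the replicate block by labelled set, 8325 passed at 24 h, 4673 at 8 h and 6428 between them, against 7073, 3220 and 4754 without it. The receptor probe sets that passed were then 13, 13 and 13, against 13, 12 and 12. At an adjusted p below 0.01 they were 13, 11 and 7, and within day 1 they were 13, 11 and 9. With single arrays left out, 11 or 12 passed between 24 h and 8 h, where 4194 to 4769 of all 19070 probe sets passed in either direction. The count over all probe sets within day 1 is not given here. Nothing is read from these receptor counts either, since the genes were selected on these comparisons. The set as a block moved the call of LAIR2 at 24 h, given above, and of LILRB3 211133_x_at, which passed at 8 h with 0.24 (adjusted p = 0.0116) and between 24 h and 8 h with 0.25 (adjusted p = 3.61e-03). The counts of several gene lists moved by more than 1.5 times, such as the ITAM list at 8 h, with 14 lower in place of 9. Shifting arrays to the same median moved the share of higher calls at 24 h to 42.7%, against 49.9%.

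Some small differences that did not pass changed sign, and the cause was not tested. LILRA5 215838_at between 24 h and 8 h was -0.0059 with arrays at the same median, -0.0771 within day 1, and -0.0207 to 0.0699 with single arrays left out. LILRA5 215839_at at 8 h was 0.0053 with the set as a block, 0.1671 within day 1, and -0.0811 to 0.0413 with single arrays left out. LILRB5 206856_at was -0.0278 between 24 h and 8 h within day 1, and at 8 h -0.0025 with the set as a block and -0.0074 to 0.0769 with single arrays left out. Among named probe sets, 29 comparisons changed sides of the threshold under at least 1 alternative. RMA values report no signal over background, so the limit it sets on weak probe sets is not known here.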
